A study of Mus musculus with 8 samples.

Results

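Trp53, the gene of the tumor suppressor p53, and 9 genes that p53 is known to activate were followed in G9a knockout and wild-type cells of the mouse hepatoma line Hepa 1-6. The 10 genes were picked by name: Trp53, Mdm2, Bbc3, Bax, Fas, Ccng1, Trp53inp1, Zmat3, Gdf15 and Pmaip1. All 10 were found among the 47434 genes of the table, and all 10 passed the filter on low counts. Poly-A RNA was sequenced from 4 libraries of cells labelled as G9a knockout and 4 libraries labelled as wild type (WT), with no treatment named for either group. G9a, the product of Ehmt2, is an enzyme that methylates histone H3 at lysine 9, a mark of silenced chromatin. The labels do not say whether the knockout cells are 1 clone or a pool, nor whether each library stems from its own culture. The p-values therefore rest on the spread between libraries alone, and that spread may be technical.

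The p53 protein is a transcription factor that is held at a low level by MDM2, a ubiquitin ligase that marks it for degradation and is itself a p53 target. When DNA damage or another stress frees p53 from MDM2, it binds DNA at pairs of a short consensus decamer and activates genes for cell cycle arrest, cell death, DNA repair and metabolism. In liver, p53 is known to restrain the growth of damaged hepatocytes, and its gene is often mutated in hepatocellular carcinoma.

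Library totals lay between 58256100 and 75025236 counts, and at a count of 0 the level of a gene could still be up to 3 counts, or 0.04 to 0.0515 CPM, which are counts per 1000000 counts of the library. Ehmt2 lay between 116.7 and 119.8 CPM in the knockout libraries, against 297.6 to 345.4 CPM in the WT libraries (log2 fold change -1.41 ± 0.05 SE, edgeR quasi-likelihood test, adjusted p = 3.82e-10). Of 13 hepatocyte markers, Alb, Ttr, Serpina1a, Cyp2e1, Tat and Hnf4a were at 0 counts in all 8 libraries, while the epithelial keratin gene Krt8 averaged 800.7 ± 38.9 CPM in knockout and 721.1 ± 30.0 CPM in WT libraries (SD, n = 4 each). Of the 3 hepatocyte markers tested, 2 rose, among them the fetal liver gene Afp, which averaged 133.3 ± 11.9 CPM in knockout and 5.77 ± 0.567 CPM in WT libraries (log2 fold change 4.53 ± 0.09 SE, edgeR, adjusted p = 2.12e-12). The 5 T cell markers summed to 0 to 0.169 CPM in knockout libraries, against 0.058 to 0.212 CPM in WT libraries, with Cd3e, Cd3d and Cd4 at 0. The 6 myeloid markers summed to 8.11 to 9.38 CPM in knockout libraries, against 5.45 to 9.6 CPM in WT libraries, with Adgre1 and Itgam at 0. Of the 3 myeloid markers tested, the leukocyte gene Ptprc rose, at 1.08 ± 0.077 CPM in knockout and 0.437 ± 0.0459 CPM in WT libraries (edgeR, adjusted p = 0.000984), and Cd68 and Csf1r did not pass. The summed level of 8 fibroblast and stellate cell markers lay between 17.1 and 18.6 CPM in knockout libraries, against 5.87 to 7.22 CPM in WT libraries, with Lrat at 0 and 4 of 6 tested markers risen. The summed level of 5 endothelial markers lay between 4.79 and 6.41 CPM in knockout libraries, against 2.45 to 4.25 CPM in WT libraries, and of 4 tested, Cdh5 rose, at 4.32 ± 0.46 CPM in knockout and 2.28 ± 0.314 CPM in WT libraries (edgeR, adjusted p = 0.000229). The part of these markers in the results that follow was not tested.

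The p53 genes did not move in 1 direction. Fas, Ccng1 and Zmat3 rose in the knockout, Trp53, Bbc3, Gdf15 and Pmaip1 fell, and Mdm2, Bax and Trp53inp1 did not pass the test. A gene is said to have risen or fallen when its adjusted p was under 0.05 in edgeR's quasi-likelihood F test, adjusted by Benjamini-Hochberg over all 15840 genes tested. By that rule 7 of the 10 genes passed, where 47.2% of all genes tested did, 23.6% upward and 23.6% downward. DESeq2 and limma-voom also called 7 of the 10, where they called 49.1% and 48.1% of all genes, and so did the edgeR test with the median of each gene's neighbours taken out (43.4% of all genes). With library sizes alone and no scaling factor, the same test called 4543 genes up and 2742 down in place of 3742 and 3734. The median log2 fold change was -0.18 over the 10 genes and 0.00 over all genes tested. The knockout and WT libraries did not overlap for 7 of the 10, as for 43.9% of all genes tested. In bulk RNA, fewer cells of a type and less RNA per cell cannot be told apart, so each change below is a change of the average over the culture. For all 10 genes the log2 fold change kept its sign under each of the 19 alternative settings in which it could be tested.

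Trp53 itself (ENSMUSG00000059552, chromosome 11, 69580359 to 69591873, plus strand, GRCm38) fell slightly. It was at 314.6, 316.2, 316.4 and 333.8 CPM in the knockout libraries, against 401.4, 364.3, 356.9 and 378.4 CPM in the WT libraries. All 4 knockout libraries lay below the lowest WT library, by a margin of the same order as the spread within WT. The mean was 320.2 ± 9.07 CPM in knockout and 375.3 ± 19.5 CPM in WT libraries (SD, n = 4 each). This was a log2 fold change of -0.23 ± 0.05 (SE, edgeR, adjusted p = 0.00107), or -0.15 with library sizes alone, which also passed. The fall did not pass a test against a change of 1.5-fold (adjusted p = 1).

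Mdm2 (ENSMUSG00000020184, chromosome 10, 117688875 to 117710758, minus strand), whose protein both inhibits p53 and is induced by it, did not pass the test. It was at 72.6, 75, 70.5 and 66.9 CPM in the knockout libraries, against 72.3, 80.0, 80.1 and 76.4 CPM in the WT libraries. The groups overlapped, because the lowest WT library, replicate 1, lay among the knockout libraries. The log2 fold change was -0.12 ± 0.05 (SE, edgeR, adjusted p = 0.0934). Without WT replicate 1 it was -0.15 and passed (edgeR, adjusted p = 0.0317).

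The 4 cell death genes split: the mitochondrial death genes Bbc3 and Pmaip1 fell, the pore-forming gene Bax did not pass, and the death receptor gene Fas rose. Bbc3 (ENSMUSG00000002083, chromosome 7, 16308393 to 16318205, plus strand) encodes PUMA, a BH3-only protein that binds and neutralizes the survival proteins of the BCL2 family. It was at 8.59, 9.1, 7.5 and 8.94 CPM in the knockout libraries, against 18.3, 13.2, 10.3 and 16.5 CPM in the WT libraries. The knockout libraries lay close together and below every WT library, while the WT libraries spread widely, with replicate 1 at the top and replicate 3 near the knockout. The mean was 8.53 ± 0.721 CPM in knockout and 14.6 ± 3.55 CPM in WT libraries (SD, n = 4 each), a log2 fold change of -0.77 ± 0.15 (SE, edgeR, adjusted p = 0.000893).

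Pmaip1 (ENSMUSG00000024521, chromosome 18, 66458533 to 66465565, plus strand) encodes NOXA, another BH3-only protein, which binds MCL1. It was at 2.61, 2.35, 2.93 and 2.54 CPM in the knockout libraries, against 4.68, 5.07, 3.03 and 3.78 CPM in the WT libraries. The groups did not overlap, but WT replicate 3 lay just above the highest knockout library. Its log2 fold change was -0.67 ± 0.17 (SE, edgeR, adjusted p = 0.00589). WT replicate 3 was thus the lowest WT library for Bbc3 and Pmaip1 alike, and it was also the lowest for Trp53, Bax and Gdf15.

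Bax (ENSMUSG00000003873, chromosome 7, 45461697 to 45466898, minus strand), whose protein opens the outer mitochondrial membrane, was at 75.6, 70.1, 79.1 and 92.0 CPM in the knockout libraries. In the WT libraries it was at 110.1, 74.5, 74.1 and 91.8 CPM. The groups overlapped, and WT replicate 1 stood above the rest. The log2 fold change was -0.15 ± 0.12 (SE, edgeR, adjusted p = 0.341), so no difference was detectable, and without WT replicate 1 the value was -0.02.

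Fas (ENSMUSG00000024778, chromosome 19, 34290666 to 34327772, plus strand), the receptor that starts the extrinsic death pathway when bound by FAS ligand, had the largest log2 fold change of the 10 from very few reads. It had 29, 60, 55 and 46 counts in the knockout libraries, against 13, 0, 7 and 8 counts in the WT libraries. Every knockout library lay above every WT library, and 1 WT library had no read of the gene. The mean was 0.703 ± 0.249 CPM in knockout and 0.11 ± 0.0873 CPM in WT libraries (SD, n = 4 each), with a log2 fold change of 2.66 ± 0.65 (SE, edgeR, adjusted p = 0.00413). The ratio of the summed counts, 190 in knockout and 28 in WT, was 6.35 after scaling, with a 95% counting interval of 4.26 to 9.81. The gene of its ligand, Fasl, had 0 counts in all knockout libraries and 4 counts in all WT libraries together, too few to test.

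Among the genes of growth control and feedback, Ccng1 and Zmat3 rose by small amounts and Trp53inp1 did not pass. Ccng1 (ENSMUSG00000020326, chromosome 11, 40748552 to 40755311, minus strand) encodes cyclin G1, which recruits the phosphatase PP2A to MDM2. It was at 24.7, 22.5, 23.7 and 22.7 CPM in the knockout libraries, against 17.6, 22, 20.5 and 20.0 CPM in the WT libraries. The groups did not overlap, but the highest WT library lay just under the lowest knockout library. Its log2 fold change was 0.22 ± 0.08 (SE, edgeR, adjusted p = 0.0258), or 0.35 with its neighbours' median taken out (adjusted p = 0.00216). This rise lost its call without knockout replicate 1 (adjusted p = 0.08), without knockout replicate 3 (0.0517), without WT replicate 1 (0.0634) and without WT replicate 4 (0.055).

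Zmat3 (ENSMUSG00000027663, chromosome 3, 32334792 to 32366014, minus strand), which encodes a zinc finger protein that binds RNA and affects splicing, was at 33.3, 32.3, 29.8 and 33.1 CPM in the knockout libraries. In the WT libraries it was at 26.5, 28.4, 28.3 and 29.1 CPM. The groups did not overlap, with knockout replicate 3 just above WT replicate 4. The log2 fold change was 0.20 ± 0.06 (SE, edgeR, adjusted p = 0.0157), and without knockout replicate 1 the call was lost (adjusted p = 0.0515).

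Trp53inp1 (ENSMUSG00000028211, chromosome 4, 11156431 to 11174379, plus strand), whose protein acts in autophagy and in the nucleus as a partner of p53, was at 1.14, 1.11, 0.74 and 0.939 CPM in the knockout libraries. In the WT libraries it was at 0.865, 1.33, 1.1 and 1.27 CPM. The groups overlapped throughout. The log2 fold change was -0.21 ± 0.25 (SE, edgeR, adjusted p = 0.521).

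Gdf15 (ENSMUSG00000038508, chromosome 8, 70629393 to 70632456, minus strand) fell the most of the 10. It encodes a secreted stress cytokine that acts on appetite through a receptor in the hindbrain, and besides p53 it is known to be activated by ATF4 and CHOP, the factors of the integrated stress response. It was at 1.87, 2.43, 3.11 and 2.75 CPM in the knockout libraries, against 5.82, 6.4, 5.29 and 7.05 CPM in the WT libraries. The highest knockout library lay well below the lowest WT library. The mean was 2.54 ± 0.525 CPM in knockout and 6.14 ± 0.756 CPM in WT libraries (SD, n = 4 each), 2.42-fold lower in the knockout, with a log2 fold change of -1.28 ± 0.16 (SE, edgeR, adjusted p = 2.6e-05). Against a change of 1.5-fold, Gdf15 (adjusted p = 0.00151) and Fas (0.0234) passed and the other 8 genes did not, where 10.5% of all genes tested passed.

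Cdkn1a, the gene of the cell cycle inhibitor p21 and the best known p53 target, is not among the 10 and was taken along for comparison. It was at 44.3, 47.0, 46.0 and 54.2 CPM in the knockout libraries, against 95, 73.0, 72.9 and 84.1 CPM in the WT libraries. The groups lay far apart, and WT replicate 1 was the highest WT library, as it was for Trp53, Bbc3, Bax and Fas. The log2 fold change was -0.76 ± 0.09 (SE, edgeR, adjusted p = 1.06e-05), close in size to that of Bbc3. Cdkn1a did not pass the edgeR test against a change of 1.5-fold (adjusted p = 0.0755).

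**Figure D1:**
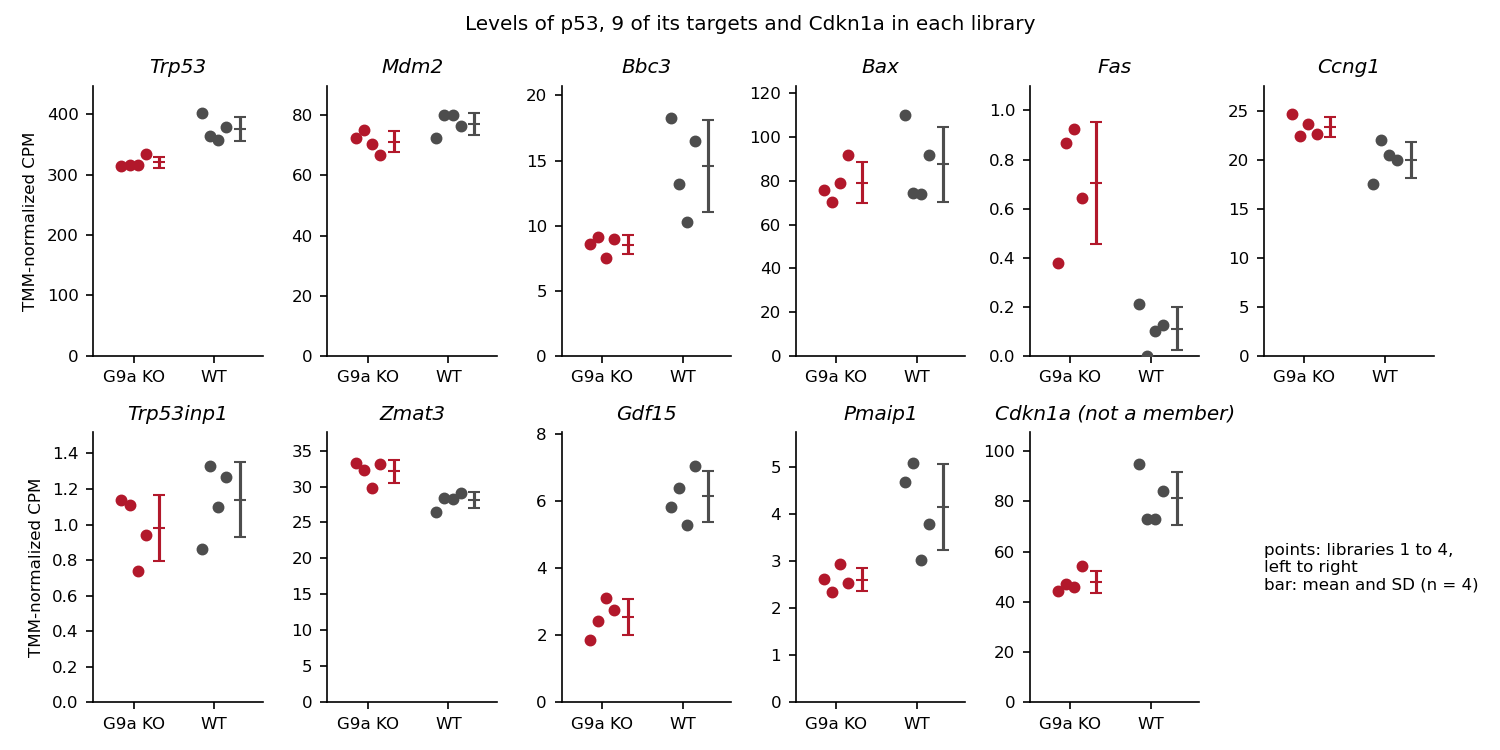
TMM-normalized CPM of the 10 genes and of Cdkn1a in each library, G9a knockout left of WT in every panel, with the mean and SD of 4 libraries beside the points. The panels of Gdf15 and Cdkn1a show a wide gap between the groups, those of Trp53, Ccng1 and Zmat3 a narrow one, and those of Mdm2, Bax and Trp53inp1 overlapping points.

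**Figure D2:**
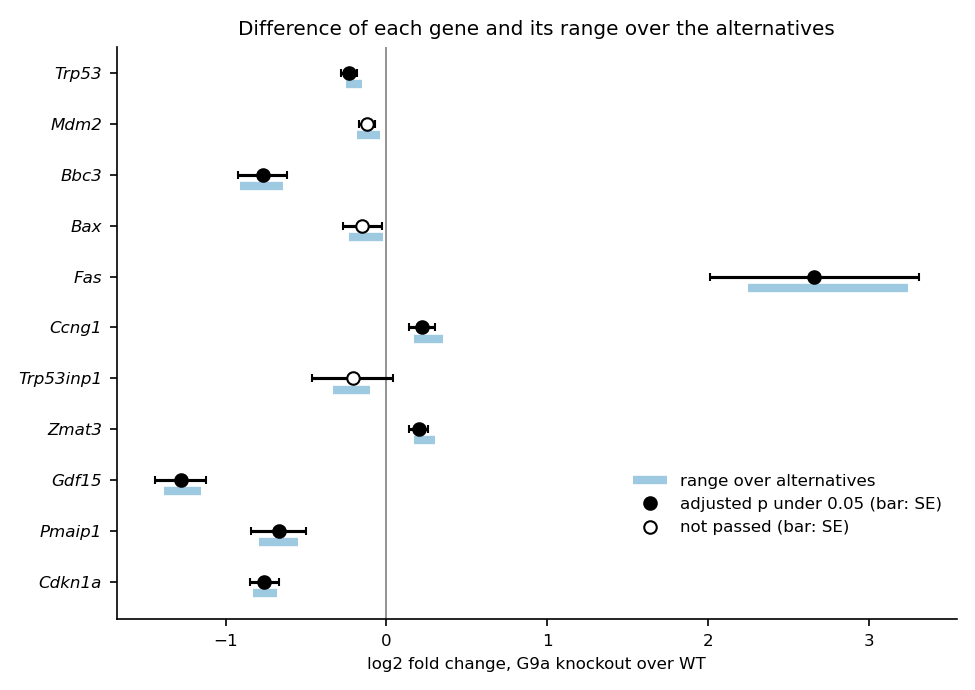
Log2 fold change of each gene, G9a knockout over WT, with its SE, filled where the adjusted p was under 0.05, and its range over the alternative settings. Gdf15 lies lowest at -1.28 and Fas highest at 2.66, and no bar of alternatives crosses 0.

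The plot of changes sets the genes side by side with their ranges over the alternatives. Those ranges ran from -1.38 to -1.15 for Gdf15, from -0.91 to -0.64 for Bbc3, from -0.25 to -0.15 for Trp53 and from 2.25 to 3.24 for Fas. The 10 genes lie on 8 chromosomes. Median log2 fold changes of the genes within 5 Mb of each gene (averaging 5 CPM or more) were near 0, the farthest being -0.12 for Ccng1 over 12 neighbours and -0.11 for Zmat3 over 31 neighbours.

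Levels of different genes were compared per length, as TPM (counts per base of transcript, scaled so that each library sums to 1000000) from the annotated transcript lengths. Trp53 was the highest of the 10 genes in both groups, at 360.9 ± 11.3 TPM in knockout and 400.9 ± 21.9 TPM in WT libraries (SD, n = 4 each). Bax came next, at 186.0 ± 18.7 TPM in knockout and 196.2 ± 39.5 TPM in WT libraries, and then Mdm2, at 50.7 ± 5.39 TPM in knockout and 51.6 ± 2.27 TPM in WT libraries. The same 3 genes led in both groups, with ranges over libraries that did not overlap between neighbours in the order. In knockout libraries Ccng1 (13.6 ± 0.562 TPM), Bbc3 (10.5 ± 1.11 TPM), Zmat3 (8.83 ± 0.603 TPM) and Gdf15 (3.34 ± 0.641 TPM) followed, with overlapping ranges for Bbc3 and Zmat3. In WT libraries Bbc3 (16.8 ± 4.21 TPM), Ccng1 (11.1 ± 0.982 TPM), Zmat3 (7.74 ± 0.288 TPM) and Gdf15 (7.71 ± 0.939 TPM) followed, with overlapping ranges for Bbc3 and Ccng1 and for Zmat3 and Gdf15. Pmaip1 lay at 1.95 ± 0.131 TPM in knockout and 2.95 ± 0.674 TPM in WT libraries. Fas, at 0.987 ± 0.366 TPM in knockout and 0.163 ± 0.134 TPM in WT libraries, and Trp53inp1, at 0.431 ± 0.176 TPM in knockout and 0.516 ± 0.225 TPM in WT libraries, were lowest, with overlapping ranges in each group.

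Promoter windows were read from RefSeq sequences on GRCm38.p6, from 250 bases before to 50 bases after each start, to show how the p53 decamer lies at genes that moved in different directions. The decamer is the 10-base p53 consensus by its usual name, which reads the same on both strands, and a full site was counted as 2 decamers at most 13 bases apart. Of 32851 windows of all genes, 2745 (8.36%) held at least 1 decamer and 24 (0.0731%) held a full site. The 7 members with an entry, Trp53, Mdm2, Bbc3, Bax, Fas, Ccng1 and Gdf15, had 10 windows, and 4 of the 7 genes had a window with a decamer. The stretches around it are printed 5′ to 3′ on the strand of the gene, with the decamer in capitals, beside the upstream start of Cdkn1a, which held a full site.
Trp53: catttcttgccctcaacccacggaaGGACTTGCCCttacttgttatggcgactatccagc
Mdm2: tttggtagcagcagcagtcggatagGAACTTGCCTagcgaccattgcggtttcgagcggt
Bax: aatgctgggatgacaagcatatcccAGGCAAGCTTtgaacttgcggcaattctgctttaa
Ccng1: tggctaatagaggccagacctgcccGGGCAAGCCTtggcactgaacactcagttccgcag
Cdkn1a: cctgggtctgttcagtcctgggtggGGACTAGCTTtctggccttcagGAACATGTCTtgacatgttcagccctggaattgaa
These stretches lie at chr11:69580259-69580318 on the plus strand for Trp53, chr10:117710910-117710969 on the minus strand for Mdm2 and chr7:45467065-45467124 on the minus strand for Bax. Those of Ccng1 and Cdkn1a lie at chr11:40755437-40755496 on the minus strand and chr17:29090881-29090962 on the plus strand. The decamer began 75 bases before the start in Trp53, 186 in Mdm2, 201 in Bax and 185 in Ccng1, and the pair of Cdkn1a began 73 and 51 bases before its start. No decamer was in the 3 windows of Bbc3, the window of Fas or the 2 windows of Gdf15. The downstream window of Cdkn1a, at chr17:29093519-29093818 on the plus strand, held none either. Trp53inp1, Zmat3 and Pmaip1 were not matched. The genes with a printed decamer were thus 2 that fell (Trp53 and Cdkn1a), 1 that rose (Ccng1) and 2 that did not pass (Mdm2 and Bax). A match describes the letters and not binding, and windows of this length leave out response elements that lie farther away or in an intron.

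Of 34 annotated transcripts of the 10 genes, 24 passed the filter and 2 passed the test, where 11.3% of all 37987 transcripts tested did. Bbc3-201 had a log2 fold change of -0.76 ± 0.20 (SE, edgeR, adjusted p = 0.0468) and Gdf15-201 of -1.24 ± 0.21 (SE, edgeR, adjusted p = 0.00791), so both had the sign of their genes. Bax, Ccng1 and Pmaip1 were read from 1 transcript each.

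For Trp53, transcript Trp53-203 held 65.6%, 66.4%, 73.4% and 65.1% of the gene's counts in the knockout libraries, against 51.8%, 34.4%, 67.4% and 61.5% in the WT libraries. The knockout libraries lay close together and the WT libraries far apart, and WT replicate 3 lay inside the knockout range. The means were 67.6% ± 3.89 in knockout and 53.7% ± 14.4 in WT libraries (SD, n = 4 each; exact permutation test, two-sided, p = 0.114). Trp53-201 held 8.72% ± 1.84 in knockout and 16.2% ± 9.31 in WT libraries (exact permutation test, two-sided, n = 4 each, p = 0.171). None of 11 shares tested passed, and the lowest adjusted p was 0.733 (exact permutation tests, smallest possible p = 0.0286). With 11 shares tested, a single share could not have passed after adjustment even with no overlap between the groups.

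For Mdm2, Mdm2-201 held 57.0% ± 15.3 of the counts in knockout and 62.0% ± 10.9 in WT libraries (SD, n = 4 each). Mdm2-202 held 25.7% ± 17.8 in knockout and 24.7% ± 8.36 in WT libraries, and its share in the knockout libraries was 10.4%, 14.1%, 28.6% and 49.7%. That spread within 1 group was wider than the difference between the group means. For Trp53inp1, the coding transcript Trp53inp1-201 had 0, 58, 0 and 32 counts in the knockout libraries and 0 counts in all 4 WT libraries. The noncoding Trp53inp1-202 had 88, 0, 44 and 35 counts in the knockout libraries, against 53, 65, 76 and 73 counts in the WT libraries. In knockout replicate 2 the coding transcript held most counts and the noncoding one none, the reverse of replicates 1 and 3, so the 2 cannot be followed apart at this depth.

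**Figure D3:**
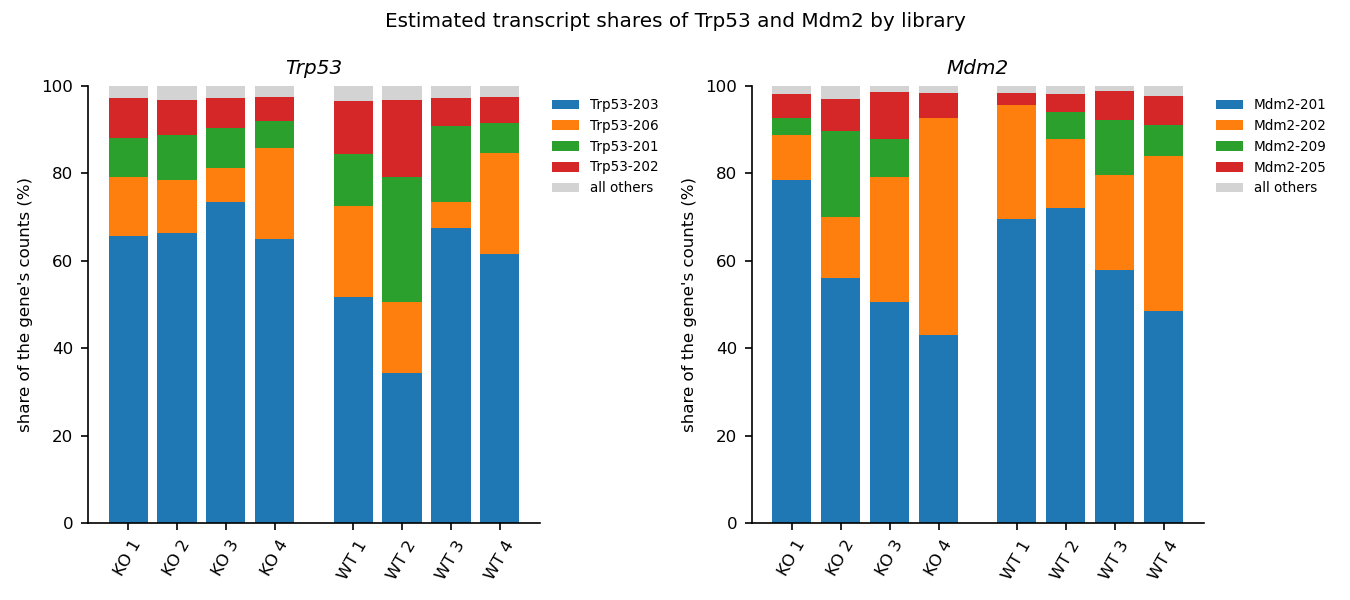
Share of each gene's counts held by its main transcripts in each library, G9a knockout left of WT, in percent. The 4 knockout libraries of Trp53-203 lie between 65.1% and 73.4%, and the WT libraries between 34.4% and 67.4%.

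Beside the 10 genes, 115 further genes of the p53 pathway were listed, of which 108 passed the filter. Of these, 24 rose, 45 fell and 39 did not pass, with a median log2 fold change of -0.08 against 0.00 over all genes. Neighbour medians taken out left 23 that rose and 36 that fell, and library sizes alone gave 28 and 39. The 115 genes join upstream genes, inhibitors, activated targets and genes that p53 lowers, so a fall has no single meaning across them. The share that passed, 69 of 108, stands against 58.3% of all genes averaging 5 CPM or more and 47.2% of all genes tested. Cdkn2a, Mgmt, Rprm and the p53 paralogs Trp63 and Trp73 were at 0 counts in all 8 libraries. The lists that follow hold the 10 genes where they belong. Their counts stand against the same shares over all genes, 58.3% and 47.2%.

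Upstream of p53, 4 of 18 tested kinases and partners rose and 8 fell. Of all genes averaging 5 CPM or more, as all 18 did, 58.3% passed. Chek2, the checkpoint kinase that phosphorylates p53, rose to 28.2 ± 1.70 CPM in knockout, against 18.2 ± 1.76 CPM in WT libraries (SD, n = 4 each; log2 fold change 0.63 ± 0.08 SE, edgeR, adjusted p = 2.2e-05), a value of 0.35 with its neighbours' median taken out. Ep300, the acetyltransferase that serves as a p53 coactivator, fell to 176.8 ± 28.5 CPM in knockout, against 257.0 ± 3.74 CPM in WT libraries (log2 fold change -0.54 ± 0.09 SE, edgeR, adjusted p = 0.000183). Trp53bp1, which encodes the damage response protein 53BP1, fell to 71.9 ± 4.37 CPM, against 112.4 ± 9.55 CPM in WT libraries (log2 fold change -0.64 ± 0.07 SE, edgeR, adjusted p = 3.36e-06). Trp53bp1 lies on chromosome 2 among genes whose median log2 fold change was -0.63, and with that neighbour median taken out its value was -0.01 (edgeR, adjusted p = 0.917). With neighbour medians taken out, 4 of the 18 rose and 4 fell.

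Of 12 tested genes on the list of p53 inhibition and degradation, 3 rose and 5 fell. All 12 averaged 5 CPM or more, and of all such genes 58.3% passed. With neighbour medians taken out 1 of the 12 rose and 6 fell. The list does not hold inhibitors and ligases of p53 alone, since it includes the ribosomal protein genes Rpl5, Rpl11 and Rpl23. Rpl5 was among those that rose (log2 fold change 0.16 ± 0.05 SE, edgeR, adjusted p = 0.0251), and Rpl11 and Rpl23 did not pass. The groups overlapped for Rpl5, and its 56 neighbours on chromosome 5 had a median of 0.30, above its own value. Mdm4, the MDM2 partner that blocks the p53 transactivation domain, was named after its values were seen. It fell to 69.2 ± 6.96 CPM in knockout, against 88.0 ± 3.09 CPM in WT libraries (log2 fold change -0.35 ± 0.07 SE, edgeR, adjusted p = 0.000715). The ubiquitin ligase gene Cop1 fell to 72.4 ± 3.54 CPM in knockout, against 94.0 ± 4.6 CPM in WT libraries (log2 fold change -0.38 ± 0.05 SE, edgeR, adjusted p = 6.52e-05). Trim28, which binds MDM2, fell by 0.30 ± 0.04 and the deacetylase gene Sirt1 fell by 0.41 ± 0.07 on the log2 scale. The ligase gene Rchy1, also known as Pirh2, rose by 0.36 ± 0.05 on the log2 scale, but its neighbours on chromosome 5 had a median of 0.39, and with that taken out its value was -0.03 (edgeR, adjusted p = 0.719).

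Of 14 tested cell cycle targets, 6 rose, 6 fell and 2 did not pass, Trp53inp1 being 1 of the 2. Sfn, which encodes the G2 arrest protein 14-3-3 sigma, rose to 16.2 ± 1.59 CPM in knockout, against 5.2 ± 0.846 CPM in WT libraries (SD, n = 4 each; log2 fold change 1.65 ± 0.12 SE, edgeR, adjusted p = 1.49e-07). Cdkn1a, on the same list, fell, and so did the growth arrest genes Btg2 and Gadd45a, which were named after their values were seen (log2 fold changes -0.75 ± 0.12 and -0.38 ± 0.14 SE, edgeR, adjusted p = 0.000194 and 0.0384). The phosphatase gene Ptp4a3 rose by 0.89 ± 0.12 and the spindle gene Ckap2 by 0.77 ± 0.07 on the log2 scale, the value of Ckap2 being 0.51 with its neighbours' median taken out.

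Of 18 tested apoptosis targets, 5 rose, 4 fell and 9 did not pass, with a median log2 fold change of 0.08. Perp, which encodes a membrane protein of desmosomes and of p53-dependent death, had 10 counts over the knockout libraries and 281 over the WT libraries. It was 30-fold lower in the knockout by summed counts, with a 95% counting interval of 16.1 to 63.3 (edgeR, adjusted p = 0.0001). Eda2r, a receptor gene of the TNF receptor family like Fas, rose to 3.36 ± 0.435 CPM in knockout, against 1.42 ± 0.446 CPM in WT libraries (log2 fold change 1.24 ± 0.23 SE, edgeR, adjusted p = 0.000495). Triap1, which encodes a small inhibitor of apoptosis, rose by 0.35 ± 0.07 on the log2 scale. With its neighbours' median taken out its value was 0.04 and did not pass (edgeR, adjusted p = 0.644).

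Of 16 tested targets in metabolism, autophagy and oxidant defence, 4 rose and 8 fell, with a median log2 fold change of -0.24. The stress-induced mTORC1 inhibitor gene Sesn2 fell to 21.1 ± 3.35 CPM in knockout, against 39.0 ± 2.64 CPM in WT libraries (log2 fold change -0.88 ± 0.10 SE, edgeR, adjusted p = 8.43e-06). The phosphatidate phosphatase gene Lpin1 fell by 0.89 ± 0.08 on the log2 scale, its value being -0.74 with its neighbours' median taken out. Cpt1c, a carnitine palmitoyltransferase gene, rose to 23.3 ± 0.844 CPM in knockout, against 11.7 ± 0.878 CPM in WT libraries (log2 fold change 0.99 ± 0.07 SE, edgeR, adjusted p = 1.77e-07). Ephx1, the gene of microsomal epoxide hydrolase, had 1060 counts over the knockout libraries and 78 over the WT libraries, a ratio of 12.7 after scaling (95% counting interval 10.1 to 16.2; edgeR, adjusted p = 1.15e-05).

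Of 11 tested DNA repair targets, 1 rose, 2 fell and 8 did not pass, and with neighbour medians taken out 2 rose and 1 fell. Rrm2b, the p53-inducible subunit of ribonucleotide reductase, rose by 0.49 ± 0.08 (SE, edgeR, adjusted p = 0.00017) on the log2 scale, a value of 0.35 with its neighbours' median taken out. Pcna, the replication clamp, fell by 0.56 ± 0.05 on the log2 scale, and its neighbours on chromosome 2 had a median of -0.54. With that taken out its value was -0.02 (edgeR, adjusted p = 0.794).

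Of 9 tested secreted and membrane targets, Gdf15 among them, 3 rose and 4 fell. Kitl, the ligand of KIT, rose to 119.6 ± 8.14 CPM in knockout, against 60.1 ± 5.65 CPM in WT libraries (log2 fold change 0.99 ± 0.07 SE, edgeR, adjusted p = 1.2e-07). Igfbp3, the gene of a binding protein of insulin-like growth factors, had 0 counts in all 4 knockout libraries and 218 counts over the WT libraries. The fall passed the test (edgeR, adjusted p = 1.06e-05). Taking 3 counts over the knockout group as the floor, its summed counts were at least 77.6-fold lower in the knockout. This bound covers counting error in the knockout alone and leaves out the spread between libraries.

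Genes that p53 is known to lower through p21 and the DREAM repressor complex were also listed. Of 20 tested, 1 rose and 11 fell, with a median log2 fold change of -0.16, while Cdkn1a fell too. Of all genes averaging 5 CPM or more, as all 20 did, 58.3% passed, and of all genes tested 47.2%, 23.6% downward. The mitotic kinase gene Aurka fell by 0.81 ± 0.04 and the cell cycle transcription factor gene Mybl2 fell by 0.77 ± 0.06 on the log2 scale (SE). Both lie on chromosome 2, where their neighbours had medians of -0.58 and -0.57, and with these taken out the values were -0.23 for Aurka and -0.21 for Mybl2. Bub1 and Bub1b, on the same chromosome, had log2 fold changes of -0.63 ± 0.07 and -0.62 ± 0.05 (SE). With their neighbour medians taken out these were -0.08 and 0.04 and did not pass (edgeR, adjusted p = 0.394 and 0.579). With neighbour medians taken out, 3 of the 20 rose and 7 fell, and with library sizes alone 4 rose and 9 fell.

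The list of ATF4 and CHOP stress targets was set beside Gdf15, since both routes are known to act on it. None of the 17 tested genes rose, 12 fell and 5 did not pass, with a median log2 fold change of -0.60 and, with neighbour medians taken out, -0.54. Of all genes tested 47.2% passed, 23.6% downward, and of those averaging 5 CPM or more, as 16 of the 17 did, 58.3%. With library sizes alone, with upper quartile scaling and with neighbour medians taken out, 1 of the 17 rose and 12 fell. Sesn2 is on this list as well as among the metabolism targets of p53. Slc7a11, which encodes a cystine transporter, fell to 13.8 ± 0.25 CPM in knockout, against 41.8 ± 4.02 CPM in WT libraries (log2 fold change -1.60 ± 0.07 SE, edgeR, adjusted p = 2.76e-09). The pseudokinase gene Trib3 fell to 10.7 ± 1.01 CPM in knockout, against 33.6 ± 1.49 CPM in WT libraries, and the glutathione-cleaving enzyme gene Chac1 to 4.18 ± 0.557 CPM in knockout, against 18.4 ± 1.63 CPM in WT libraries. Their log2 fold changes were -1.65 ± 0.08 and -2.14 ± 0.11, and -1.06 and -1.49 with neighbour medians taken out. Atf4 itself, named after its values were seen, fell to 328.1 ± 13.2 CPM in knockout, against 473.2 ± 15.8 CPM in WT libraries (log2 fold change -0.53 ± 0.04 SE, edgeR). The part of these genes in the fall of Gdf15 was not tested.

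**Figure D4:**
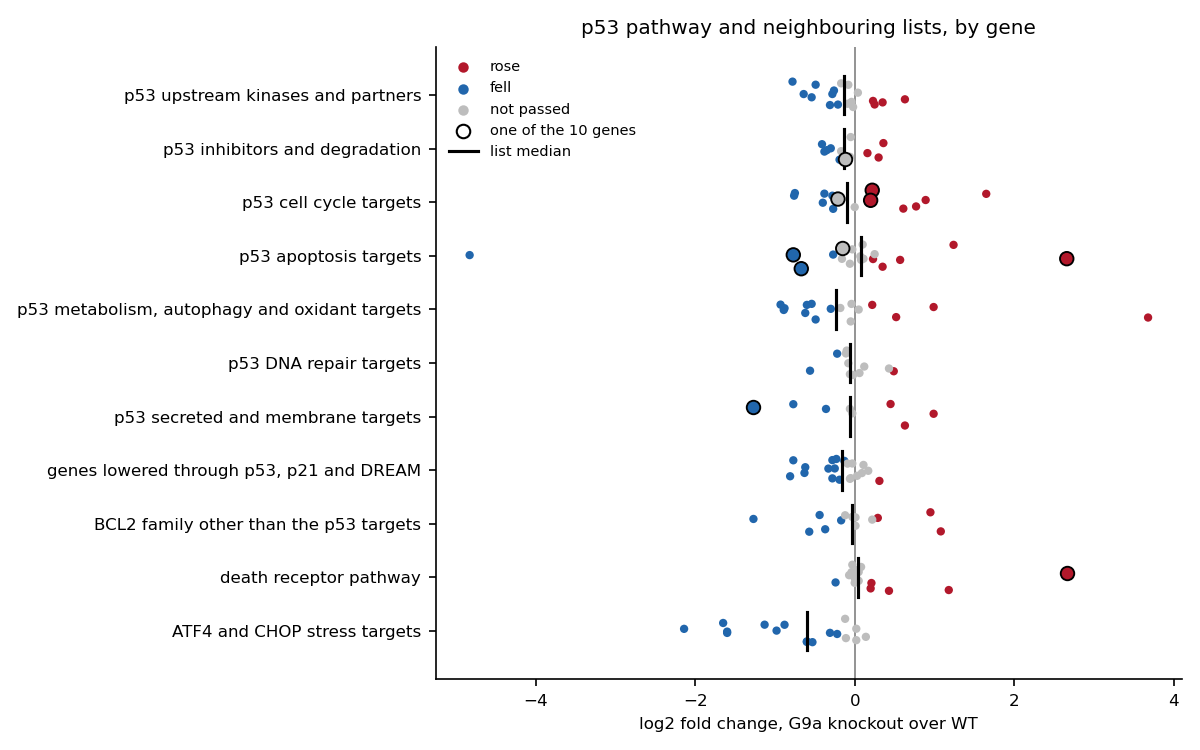
Log2 fold change, G9a knockout over WT, of each tested gene of the p53 lists and neighbouring lists, colored by its call, with circles around the 10 genes and a bar at each list's median. Igfbp3 is left out because it had no count in the knockout. The cell cycle and apoptosis lists hold points on both sides of 0, and the ATF4 and CHOP list has its median at -0.60.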

How the data were processed

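FastQC, Trimmomatic, HISAT2 and GRCm38.p6 are listed in the submitters' processing notes, with no version or role. How reads were counted, with which annotation and whether by strand, is not given in the sources used here. Per the labels' protocols, RNA was extracted with TRIzol and poly-A libraries were made with a SMARTer kit. The deposited values are whole-number counts per transcript, not normalized. Of 115220 transcripts, 114332 (99.23%) matched GENCODE mouse release M21 and were summed to 47434 genes. The 888 others held 0.148% to 0.17% of a library's counts and were left out.

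Genes were compared with the two-sided quasi-likelihood F test of edgeR 4.0.16 (R 4.3.3), with TMM scaling, filterByExpr and genotype as the single term, adjusted by Benjamini-Hochberg. The SE was derived from F, as |log2 fold change| over its square root. The code was checked on simulated counts. Alternatives included DESeq2 1.42.0, limma-voom (limma 3.58.1), other scalings and filters, a replicate block, neighbour medians taken out and each library left out. Shares of transcripts were compared with exact permutation tests. Intervals and floors cover counting error only, since reads were not collapsed by molecular identifiers. Within groups, no pair of libraries agreed within counting noise (lowest chi-square per degree of freedom 10.3).

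The members and lists were chosen with earlier results of these data known. Named genes were the 10, Ehmt2, Cdkn1a, up to 4 tested genes of each list with the lowest p, and the 3 genes nearest to Trp53 in profile, not all of which are described. Some of these genes are not reported here. No other gene of the table with counts overlaps a member.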

Additional observations from a re-analysis of the deposited data

Results flagged for a closer look

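Of 22 sets of 4 libraries examined, the 10 genes and Cdkn1a in each group, 1 held a library that stood apart. Trp53 was at 333.8 CPM in knockout replicate 4, while the other 3 knockout libraries lay between 314.6 and 316.4 CPM, so that the gap to the nearest took 0.91 of the whole range. The limit used to single out a library is passed by chance in about 1 of 20 sets. The library still lay below the lowest WT library, at 356.9 CPM.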

How the results depend on the processing

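For the 10 genes, 174 values under the alternatives kept direction and call, 10 lost the call, 1 gained it and none changed sign. Against a change of 1.5-fold, 1656 of all genes passed (1191 rose, 465 fell), 2 of the 10 (1 rose, 1 fell) and 13 of the pathway genes (7 rose, 6 fell). With a mean of at least 5 CPM required, 6 of the 10 remained testable and 4 passed (2 rose, 2 fell), where 58% of all genes did. With each library left out in turn, 6863 to 7659 genes passed (3462 to 3866 rose, 3325 to 3793 fell), 5 to 7 of the 10 (1 to 3 rose, 4 to 5 fell), 65 to 71 pathway genes and 3047 to 3924 transcripts. The 0 transcript shares that passed in each case say nothing of stability, since a single share could not pass. Without knockout replicate 1, 1 of the 10 rose. Replicate numbers did not pair the samples: deviations of same-numbered libraries correlated at -0.284, 0.0779, 0.384 and 0.13, and not every library correlated best with its own number. The replicate block gave 7255 genes in place of 7476, 7 of the 10, 69 pathway genes, and 1842 transcripts in place of 4284. Of the other named genes, 1102 values kept direction and call, 45 lost the call and 5 gained it. The sign changed with neighbour medians taken out for Rchy1 (-0.03), Bub1b (0.04), Bcl2l1 (0.03), Diablo (-0.04) and Krt18 (0.04). It changed with protein-coding transcripts alone for Rev3l (0.51) and Diablo (-0.46), and for Krt18 with upper quartile scaling (0.02) and library sizes alone (0.04). It also changed for Kdr without knockout replicate 4 (-0.09) and without WT replicate 3 (-0.06), and for Pecam1 without knockout replicate 2 (-0.04). Leaving out a library, these ranged from -0.09 to 0.65 for Kdr and from -0.04 to 0.43 for Pecam1. Beyond what a value shows above, the cause was not tested. Fas, Trp53inp1, Gdf15 and Pmaip1 averaged under 5 CPM.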

Other observations

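The BCL2 family genes that are not counted among the p53 targets moved in both directions. Among 13 that could be tested, there were 3 that rose and 5 that fell, with a median log2 fold change of -0.03. All 13 averaged 5 CPM or more, and of all such genes 58.3% passed. With neighbour medians taken out 4 of the 13 rose and 2 fell, with a median of 0.03. Upper quartile scaling or library sizes alone gave 4 that rose and 4 that fell. Bcl2, the founding survival gene, rose to 12.6 ± 1.04 CPM in knockout, against 6.51 ± 0.665 CPM in WT libraries (SD, n = 4 each; log2 fold change 0.95 ± 0.10 SE, edgeR, adjusted p = 4.68e-06), a value of 0.74 with its neighbours' median taken out. Bid, which links death receptors to mitochondria once caspase-8 cuts it, rose to 27.3 ± 1.38 CPM in knockout, against 13 ± 0.582 CPM in WT libraries (log2 fold change 1.08 ± 0.07 SE, edgeR, adjusted p = 3.77e-08). Bmf, another BH3-only gene, fell to 3.75 ± 0.335 CPM in knockout, against 9.03 ± 0.42 CPM in WT libraries (log2 fold change -1.27 ± 0.10 SE, edgeR, adjusted p = 4.87e-07), a value of -0.62 with its neighbours' median taken out. The survival gene Bcl2l1 fell to 47.2 ± 2.74 CPM in knockout, against 69.9 ± 2.79 CPM in WT libraries (log2 fold change -0.57 ± 0.06 SE, edgeR), on a stretch of chromosome 2 whose genes had a median of -0.59. With that taken out the value of Bcl2l1 was 0.03 and did not pass.

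Of 16 tested genes of the death receptor pathway, Fas among them, 5 rose, 1 fell and 10 did not pass, with a median log2 fold change of 0.04. Of all genes tested 47.2% passed. With upper quartile scaling or library sizes alone 5 of the 16 rose and the 1 fall lost its call. Cflar, which encodes the caspase-8 inhibitor FLIP, rose to 52.2 ± 4.85 CPM in knockout, against 38.7 ± 2.57 CPM in WT libraries (log2 fold change 0.43 ± 0.07 SE, edgeR, adjusted p = 0.00023), a value of 0.63 with its neighbours' median taken out.

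Profiles over the 8 libraries were compared among 9474 protein-coding genes averaging 5 CPM or more, predicted genes left out. Those nearest to Trp53 were Eef2, Sf3b4 and Aars. Their root mean square differences of log2 CPM from Trp53 were 0.0194, 0.0213 and 0.0218. Eef2 encodes a translation elongation factor, Sf3b4 a splicing factor and Aars the alanyl-tRNA synthetase. Their log2 fold changes were -0.22 ± 0.05, -0.20 ± 0.05 and -0.22 ± 0.05 (SE). Each profile was centred on its WT mean, so fold changes near that of Trp53 follow from the choice of these genes. The call of Sf3b4 was lost with library sizes alone (edgeR, adjusted p = 0.0535) and that of Aars with neighbour medians taken out (edgeR, adjusted p = 0.101).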
